A study of Mus musculus with 10 samples.

Results

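The transcripts described here are those represented on the array by a RIKEN full-length cDNA clone. They were chosen by name: a probe belongs to the group when its name starts with the array's RIKEN prefix and continues with a clone name of the usual form. In all, 15584 of 97836 non-control probes met this rule, each for a different clone. A further 91 probes bear a RIKEN prefix with another form of name and were left out. The study compared livers of 5 control and 5 hyperlipidemic mice, with RNA of each sample on its own one-colour Agilent array. Control mice were wild-type and ate regular food, whereas hyperlipidemic mice were ApoE-/- and ate a high-fat food of 2.5% cholesterol and 15% fat. All were males of strain C57BL/6J, aged 42 days per the labels. No mice of one genotype on the other food were among the samples, so the genotype and the food cannot be told apart. ApoE-/- mice lack apolipoprotein E in all tissues, so the liver is not the only organ affected. The labels do not say more on how the samples of a group were obtained, so a p-value reflects only how these samples scatter, and that scatter may be technical.

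RIKEN clones come from a project that copied mouse messenger RNAs into full-length cDNA, tissue by tissue and stage by stage, and annotated them in the FANTOM consortium. Many of these cDNAs carry no long open reading frame, and they formed an early catalogue of long non-coding RNA in the mouse. Others are alternative ends, intronic or antisense transcripts of known genes, or ordinary messenger RNAs. The first 4 characters of a clone name give the library it was picked from. Clone names matched a symbol or synonym of the RefSeq gene table for 1254 of the 15584 probes. Of these, 682 matched a protein-coding gene and 543 a long non-coding RNA gene. A matched name places a clone at a locus, and the clone may still report another transcript there than the main messenger RNA. The number that ends each probe name ran from 206 to 8936, with a median of 2092. It was read as the length of the cDNA in bases, as in the consortium's naming. The clones' own sequences were not used here.

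Upstream sequence was available for 939 of the 1215 genes that the clones matched. Shown are the 250 bases before the RefSeq start of 3 genes, those of the matched protein-coding clones with the lowest unadjusted p among clones lower in hyperlipidemic livers. Zfp235 encodes a zinc finger protein, Mrpl47 a protein of the large subunit of the mitochondrial ribosome, and Hs3st5 an enzyme that adds a 3-O-sulfate to heparan sulfate. Sequences are RefSeq's, assembly GRCm38.p6, 5′ to 3′ on the gene's strand, at chr7:24132122-24132371 (plus strand) for Zfp235, chr3:32736756-32737005 (minus) for Mrpl47 and chr10:36506557-36506806 (plus) for Hs3st5. Capitals mark matches, on either strand, to any of 3 common promoter motifs. The TATA box was searched for as the letters TATAAA. The CCAAT box was searched for by its own name. The GC box was searched for as the letters GGGCGG. No match overlapped another in these windows.
Zfp235: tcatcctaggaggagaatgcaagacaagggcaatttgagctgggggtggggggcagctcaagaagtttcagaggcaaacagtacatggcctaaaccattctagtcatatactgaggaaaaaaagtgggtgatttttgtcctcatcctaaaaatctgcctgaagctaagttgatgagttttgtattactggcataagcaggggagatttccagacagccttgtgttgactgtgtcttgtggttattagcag
Mrpl47: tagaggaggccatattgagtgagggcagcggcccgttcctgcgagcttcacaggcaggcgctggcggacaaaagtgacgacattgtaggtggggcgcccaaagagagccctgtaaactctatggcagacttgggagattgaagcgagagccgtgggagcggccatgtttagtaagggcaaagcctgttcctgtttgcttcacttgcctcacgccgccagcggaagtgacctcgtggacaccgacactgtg
Hs3st5: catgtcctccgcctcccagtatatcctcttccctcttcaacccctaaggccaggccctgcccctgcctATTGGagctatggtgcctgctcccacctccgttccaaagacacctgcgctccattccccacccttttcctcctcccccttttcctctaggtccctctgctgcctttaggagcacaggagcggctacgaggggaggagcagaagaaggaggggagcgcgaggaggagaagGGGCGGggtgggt
The windows of Zfp235 and Mrpl47 held 0 matches to the 3 motifs. That of Hs3st5 held 1 CCAAT box and 1 GC box. Among all 27025 windows of this length in the table, 13% held a TATA box, 34.5% a CCAAT box and 32.9% a GC box. Among the 939 windows of clone-matched genes, the shares were 7.99%, 36.0% and 40.3%. The share of G and C was 44.4% for Zfp235, 58.4% for Mrpl47 and 62.0% for Hs3st5. A match describes these letters only, and the clones need not start at these positions.

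The scanner software flags each spot that stands well above background, and 33.6% to 49.2% of 175906 non-control spots carried that flag on an array. Control replicate 4 stood apart with the highest share. Slide 1 held control replicates 1 to 4, slide 2 held control replicate 5 and hyperlipidemic replicates 1 to 3, and slide 3 held hyperlipidemic replicates 4 and 5. The labels' protocols describe a blood RNA kit and name genomic DNA as the molecule, while the source is liver. The tissue could not be checked through the clones, because 0 of 29 hepatocyte, 0 of 19 blood and 0 of 14 macrophage marker symbols were matched by a clone.

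Most RIKEN clone probes were not well above background in any of these livers. A clone probe counts as detected on an array when all its unflagged spots were well above background. Of the 15533 clone probes with a value on every array, 9507 (61.2%) were detected on no array, 1892 (12.2%) on all 10 and 4134 (26.6%) on 1 to 9, of which 1477 on a single array. Over all probes of the array, the shares were 52.9% and 25.4%. Detection was 23.7%, 17.9%, 20.5%, 35.5% and 22.0% of clone probes on control replicates 1 to 5. It was 24.6%, 19.2%, 15.8%, 19.8% and 21.7% on hyperlipidemic replicates 1 to 5. The groups overlapped throughout, and control replicate 4 alone lay above every other array. Mean detection was 23.9% ± 6.82 (SD, n = 5) for control arrays and 20.2% ± 3.23 (SD, n = 5) for hyperlipidemic arrays. Without control replicate 4 the control mean was 21.0%, so the difference of -3.69 percentage points became -0.79.

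**Figure D1:**
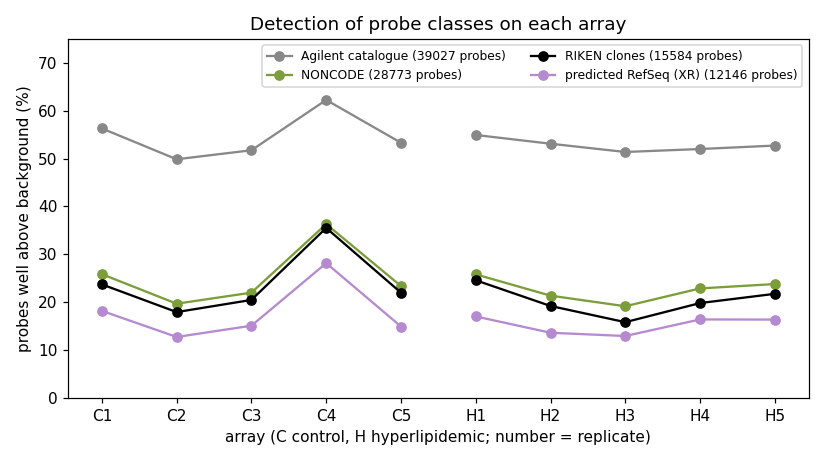
Share of probes well above background (%) on each array, control (C1 to C5) and hyperlipidemic (H1 to H5), for 4 classes of probe, with lines joining the arrays of a group. RIKEN clones ran from 15.8% to 35.5%, close to NONCODE transcripts and below the catalogue probes, and all 4 classes peaked on C4.

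The clones tracked the array's other non-coding classes. Probes of NONCODE, a database of non-coding RNAs, were detected at 19.7% to 36.3% on control and 19.1% to 25.8% on hyperlipidemic arrays. Predicted RefSeq non-coding transcripts were lower, at 12.7% to 28.2% and 12.9% to 17.0%. Agilent's catalogue probes, the part of the array that holds the known genes, ran from 49.8% to 62.2% and from 51.4% to 54.9%. On every array the clones lay below NONCODE and above the predicted RefSeq transcripts. Of the clone probes detected on a single array, 1075 (6.92% of all clones) were seen on control replicate 4 alone, beside 6.09% of all probes. Patterns that followed the groups were rare, for clones as for all probes. On all control and no hyperlipidemic arrays, 2 clone probes (0.0129%) were detected, beside 0.0125% of all probes. The reverse held for 0 clone probes and 0.00208% of all probes. The 2 clone probes were 0610030O19, whose name is a synonym of Zfp235, and 4930408L20, which matched no gene.

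Detection in liver varied with the library a clone was picked from. The tissues of 28 prefixes, covering 3831 probes, are known from the naming scheme and are not stated in the files. Clones from embryonic stem cells were detected most often, at a median of 52.5% over the 10 arrays (range 50% to 65%, 20 probes). Of the other libraries with at least 20 probes, those from stomach (37.1%), pancreas (35.1%) and kidney (35%) followed, each resting on 20 to 37 probes. The 247 clones from whole embryos were detected at a median of 33% (27.9% to 47.4%). The 1131 testis clones were detected at 17.5% (14.5% to 29.7%), and the 197 clones from adult diencephalon, a part of the forebrain, at 12.4% (9.14% to 27.0%). On each array embryo clones lay above testis clones by more than 10 percentage points. Brain libraries were not uniformly low, since hippocampus clones reached 31.5% and medulla oblongata clones 29.6%. The libraries with few probes move by several points with a single probe, and neighbours in this order overlapped across arrays.

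**Figure D2:**
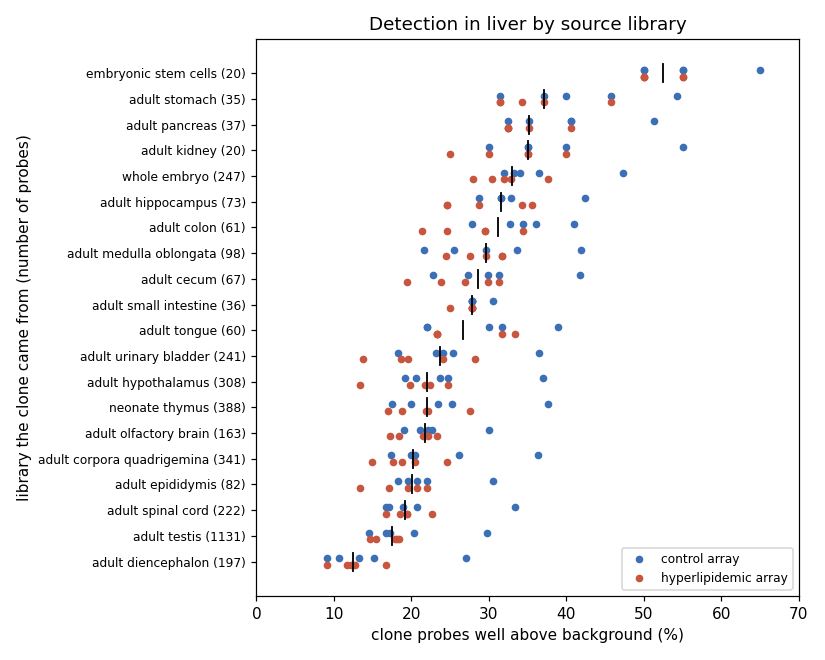
Share of clone probes well above background (%) by source library, 1 point per array, control in blue and hyperlipidemic in red, with the median over 10 arrays as a bar and the number of probes in brackets. Embryonic stem cell clones centre on 52.5%, whole-embryo clones on 33%, testis clones on 17.5% and diencephalon clones on 12.4%, and the right-most control point is control replicate 4 in every library with more than 100 probes.

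The liver's own library, prefix 1300, contributed 4 clones, detected at a median of 50% (range 25% to 50%), of which 2 were tested. The clone 1300007J06 of Gpt, alanine aminotransferase, a classical hepatocyte enzyme, read 4.67, 4.74, 4.72, 4.24 and 4.93 on control and 4.29, 5.12, 5.39, 5.17 and 4.44 on hyperlipidemic arrays. These are log2 levels relative to the array's 75th percentile, and the groups overlapped. The difference was 0.22 (SE 0.24, limma adjusted p = 0.853). The other, 1300002E11, matched a RIKEN-named long non-coding RNA gene and differed by 0.11 (SE 0.20, adjusted p = 0.917).

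Among the 76 prefixes with at least 50 probes, median detection ran from 12% for one of the testis libraries and 12.4% for the diencephalon library to 37.6% for C730 and 39.6% for one of the whole-embryo libraries. The shortest clones were detected more often than the longest. For cDNAs of up to 1000 bases the median was 25.2% in control and 23.5% in hyperlipidemic livers, and for those over 4000 bases it was 20% and 17.1%. The order between was not strict, with 20.4% and 18.7% for 2000 to 3000 bases and 21.2% and 18.8% for 3000 to 4000. Among gene-matched clones, 104 probes of 3000 to 4000 bases reached 26.9% in both groups. Gene-matched clones of up to 1000 bases reached 27.2% and 25.5%. Clones matched to a protein-coding gene were detected at 34.3% and 29.9%, those matched to long non-coding RNA genes at 16.9% and 16.4%, and unmatched clones at 21.6% and 19.4%. The order of the gene classes was the same on every array. Clones whose plate name starts with R, 103 probes, reached 41.8% and 38.8%, against 21.5% and 19.4% for the 12645 clones of PX plates.

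Very few clones separated control from hyperlipidemic livers. For the comparison, a probe had to be well above background on 4 or 5 of the 5 arrays in either group. Of 30244 features of all classes that passed, 2998 were clone probes. At a limma adjusted p under 0.05, 0 clones rose and 2 fell, where 0.043% of all features rose and 0.0265% fell. Before adjustment, 53 clones were higher and 166 lower with a limma p under 0.05, 1.77% and 5.54% of those tested, beside 2.98% and 2.83% of all features. In 11 clones every hyperlipidemic array lay above every control array and in 14 below, beside 0.612% and 0.36% of all features. Fitted differences were small: 98.5% of tested clones lay within 2-fold, against 99.1% of all features. Another 9 were more than 2-fold higher and 37 more than 2-fold lower. The 95% interval of a clone reached a median of 0.55 log2 units to either side. A clone could pass the filter through the single group where it was high, so these counts describe the tested clones and not all 15584. Both clones past the adjusted threshold passed through control alone, with 5 control and 0 hyperlipidemic arrays well above background.

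**Figure D3:**
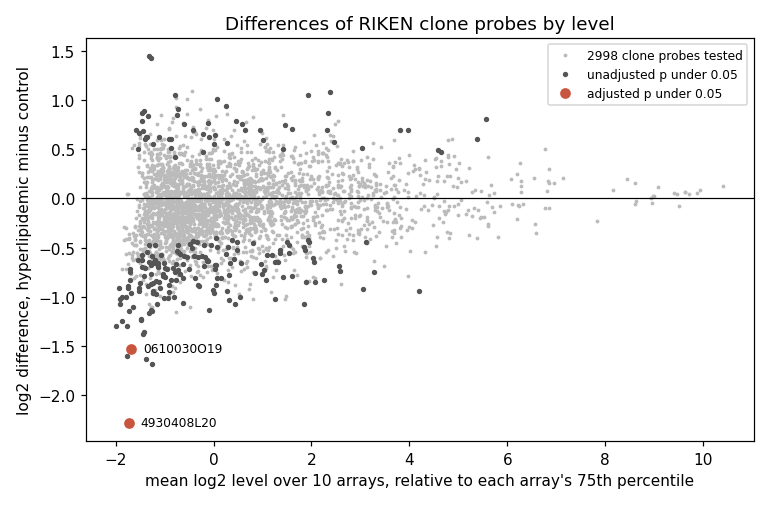
Log2 difference, hyperlipidemic minus control, of the 2998 tested clone probes against their mean log2 level over 10 arrays. Dark points have an unadjusted p under 0.05 (53 higher, 166 lower) and the labelled red points are the 2 clones with an adjusted p under 0.05, both at the dim end of the range.

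The Zfp235 clone 0610030O19 was picked from a kidney library and is 1299 bases long. Its log2 level was -1.35, -0.71, -1.04, -1.19 and -0.32 on control replicates 1 to 5. On hyperlipidemic replicates 1 to 5 it was -2.34, -2.50, -2.81, -2.61 and -1.97. All control arrays were well above background and lay above all hyperlipidemic arrays, of which none was. Means were -0.92 ± 0.41 and -2.45 ± 0.32 (SD, n = 5 per group), and the level fell by 1.52 (SE 0.24, limma adjusted p = 0.0224). Because the hyperlipidemic signal is only a bound, the control level was set against each hyperlipidemic array's detection floor, the lowest signal still flagged there. By that measure the clone was at least 1.53-fold lower.

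The clone 4930408L20, of 2790 bases from a testis library, was steady in control livers at -0.75, -0.59, -0.72, -0.60 and -0.33. Hyperlipidemic replicates read -2.96, -2.14, -1.76, -3.81 and -3.69, none of them well above background. The groups did not overlap, and the wider spread lay among the hyperlipidemic arrays. Means were -0.60 ± 0.17 and -2.87 ± 0.91 (SD, n = 5 per group). The level fell by 2.28 (SE 0.35, limma adjusted p = 0.0213). It was at least 1.92-fold lower by the same bound.

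Neither call held in every fit with 1 array dropped, nor with slide as a block. The fits with 1 array dropped also had fewer arrays, and the filter was applied again to the arrays left. The Zfp235 clone was no longer called when control replicate 2, 3 or 5 was dropped, nor when hyperlipidemic replicate 1, 2, 3 or 4 was (adjusted p of 0.0577 to 0.137). Its difference ran from -1.64 to -1.37 over the 10 fits with an array dropped. The clone 4930408L20 was no longer called when any one of the control replicates 1 to 5, or hyperlipidemic replicate 1 or 5, was dropped (0.0609 to 0.126), with differences of -2.55 to -2.04. With slide as a block the differences were -2.23 and -1.96 (adjusted p = 0.279 and 0.964), and that fit rests on slide 2, where control replicate 5 is the only control. With normexp background correction they were -0.42 and -0.60 (0.582 and 0.134). Quantile normalization, scaling to the median and testing without a filter ended both calls too (adjusted p of 0.0527 to 0.181), and so did leaving out control replicate 4 and hyperlipidemic replicate 4 together (0.115 and 0.133). The robust and trended prior ended that of the Zfp235 clone (0.0896).

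**Figure D4:**
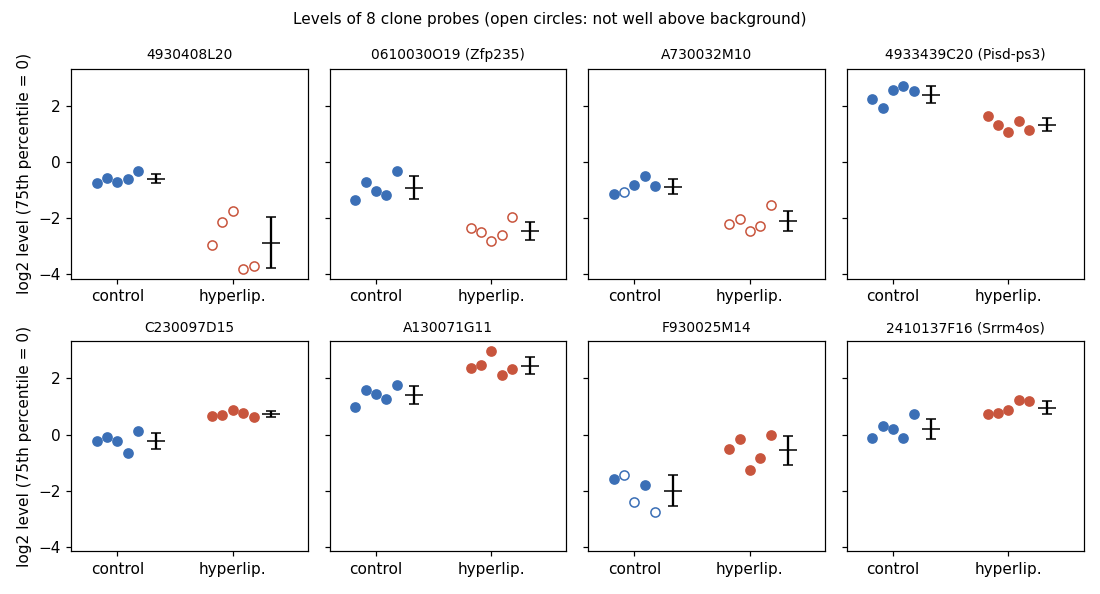
Log2 levels of 8 clone probes on control (blue) and hyperlipidemic (red) arrays, 1 circle per array in replicate order, open where not well above background, with mean and SD beside each group. Upper row, clones lower in hyperlipidemic livers, with 0610030O19 from -0.92 to -2.45 and 4930408L20 from -0.60 to -2.87; lower row, clones higher, of which none passed the adjusted threshold.

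Clones that came next in the lower direction did not pass the adjusted threshold. A730032M10, without a gene, read -1.14, -1.08, -0.80, -0.51 and -0.84 on control and -2.22, -2.04, -2.47, -2.28 and -1.54 on hyperlipidemic arrays. The groups were apart, and no hyperlipidemic array was well above background. It differed by -1.23 (SE 0.22, adjusted p = 0.0687), and against the detection floor of the hyperlipidemic arrays it was at least 1.58-fold lower. It passed with quantile normalization (adjusted p = 0.0396), with array weights (0.0448) and without hyperlipidemic replicate 5 (0.0269).

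The clone 4933439C20 bears the name of Pisd-ps3, a pseudogene of phosphatidylserine decarboxylase, the mitochondrial enzyme that makes phosphatidylethanolamine. It was well above background on all 10 arrays, at 2.25, 1.93, 2.57, 2.69 and 2.52 in control and 1.62, 1.31, 1.07, 1.47 and 1.13 in hyperlipidemic livers. Every hyperlipidemic array lay below every control array. The difference was -1.08 (95% interval -1.52 to -0.64, adjusted p = 0.128), and -0.94 with normexp (0.0912). Pseudogenes share sequence with their parent gene, so this probe may also read Pisd.

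The testis clone 4933428H08 differed by -1.22 (adjusted p = 0.431), and D030067P18 by -1.03 (0.366). The hypothalamus clone A230020H02 differed by -0.83 (0.499) and the spinal cord clone A330072B11 by -0.79 (0.503). None of these 4 matched a gene. With undetected arrays raised to their detection floor, 4933428H08 differed by -0.57 and A230020H02 by -0.64. The groups of A330072B11 did not overlap, with control at -0.85 to -0.32 and hyperlipidemic at -1.73 to -0.96, whereas those of the other 3 did.

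In the higher direction 0 clones passed, and 8 with the lowest unadjusted p are described. C230097D15 was at -0.23, -0.08, -0.24, -0.66 and 0.13 in control and at 0.66, 0.69, 0.89, 0.76 and 0.62 in hyperlipidemic livers, with all arrays well above background. The hyperlipidemic arrays were tightly grouped (SD 0.11) above all control arrays. It differed by 0.94 (SE 0.19, adjusted p = 0.179), and by 0.61 with slide as a block. With the 75th percentile taken over detected probes it passed, at 0.87 (adjusted p = 0.0378).

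A130071G11 was at 0.97, 1.60, 1.44, 1.27 and 1.78 in control and at 2.36, 2.46, 2.98, 2.14 and 2.35 in hyperlipidemic livers, again without overlap. It differed by 1.05 (SE 0.22, adjusted p = 0.185), and by 0.93 with normexp, where it passed (0.0419). F930025M14, of 4283 bases, was detected on 2 of 5 control and all hyperlipidemic arrays. It differed by 1.43 (adjusted p = 0.185), and by 1.0 with arrays raised to their detection floor. E030024E19 differed by 1.44 (0.355) with overlapping groups, by 0.85 with arrays raised to their floor and by 0.26 with slide as a block.

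The embryonic stem cell clone 2410137F16, of 452 bases, matched Srrm4os, the transcript opposite the splicing regulator gene Srrm4. It read -0.11, 0.32, 0.20, -0.13 and 0.73 in control and 0.75, 0.75, 0.88, 1.23 and 1.18 in hyperlipidemic livers. The highest control array was replicate 5, just under the lowest hyperlipidemic array. The difference was 0.76 (SE 0.21, adjusted p = 0.608) and 0.07 with slide as a block, where control replicate 5 is the only control. The remaining clones, D130057I15, A630005P07 and D030020A02, differed by 0.67, 0.79 and 0.76 (adjusted p of 0.553 to 0.677), with separate groups in D130057I15 and D030020A02 and overlap in A630005P07.

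Among tested clones, those matched to a protein-coding gene leaned to lower values as the unmatched clones did. A clone could pass the filter through the group where it was high, and the filter's part here was not tested. Of 302 tested clones with a gene, 209 were protein-coding, of which 2 (0.957%) were higher and 16 (7.66%) lower before adjustment, and 1, Zfp235, passed the adjusted threshold. Of unmatched clones, 1.71% were higher and 5.45% lower. Of 85 long non-coding RNA matches, 3 (3.53%) were higher and 2 (2.35%) lower. Over all features, 2.98% were higher and 2.83% lower before adjustment, and 0.0265% were lower past the adjusted threshold. Median differences were -0.08 for protein-coding, 0.00 for long non-coding and -0.08 for unmatched clones, against 0.03 over all features.

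The lower gene-matched clones had diverse roles. The Mrpl47 clone 4833424P18 differed by -1.29 (SE 0.35, adjusted p = 0.575). Its means were -1.12 ± 0.26 and -2.41 ± 0.91 (SD, n = 5 per group). Hyperlipidemic replicate 1, at -0.89, lay among the controls (-1.33 to -0.71), and the other hyperlipidemic arrays lay at -3.30 to -2.47. Without that array the difference was -1.67 and passed (adjusted p = 0.0138). It was the one hyperlipidemic array well above background, and with undetected arrays raised to their detection floor the difference over all arrays was -0.27. The Hs3st5 clone D930005L05 differed by -0.83 (0.657), with control at -0.90 to 0.20 and hyperlipidemic at -1.58 to -0.84. Its promoter was the one of the 3 shown with a CCAAT box and a GC box.

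The Sap18 clone C530046K05, from the locus of a subunit of the Sin3 histone deacetylase complex, differed by -0.76 (adjusted p = 0.657). The Nap1l4 clone 2810410H14, of a nucleosome assembly factor, differed by -0.65 (0.729), with control at 1.36 to 2.14 and hyperlipidemic at 0.82 to 1.30, which do not overlap. The Nop53 clone 9430097C02, of a nucleolar ribosome biogenesis factor, differed by -0.90 (0.756), and that of Sorbs2os, opposite Sorbs2, by -0.66 (0.812). With undetected arrays of both groups raised to their detection floor, the Nop53 difference was -0.08 and that of Sorbs2os -0.41.

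The cecum clone 9130221J18 matched Slc10a2, the sodium-dependent transporter that takes up bile acids in the ileum and in bile duct cells. It read 2.26, 2.90, 2.43, 2.20 and 2.65 in control and 2.81, 2.12, 1.12, 0.98 and 1.19 in hyperlipidemic livers. Hyperlipidemic replicates 3 to 5 were low and replicates 1 and 2 lay near or among the controls. The difference was -0.84 (95% interval -1.54 to -0.15, adjusted p = 0.812). Arrays also fell into 3 sets by the signal of a spike-in RNA, and with those sets as a block the difference was 0.04. A single set, of control replicates 4 and 5 and hyperlipidemic replicates 1 and 2, holds both groups, so that value rests on these 4 arrays. The Yod1 clone 6330564D18, of a deubiquitinating enzyme, differed by -0.76 (0.824), and by 0.10 with the same block.

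Gene-matched clones in the higher direction did not pass, and several turned with the slide block. The RIKEN-named 1500002F19 and 9530050K03 differed by 1.01 and 1.08 (adjusted p = 0.785 and 0.826), and by -0.52 and -0.44 with slide as a block. Their hyperlipidemic replicates 4 and 5, both on slide 3, read 1.52 and 1.29, and 4.35 and 3.55, above every other array. The Krtap10-4 clone A030009A09, named after a hair keratin-associated protein, differed by 0.69 (0.824), and by 0.17 with the block. The Grik2 clone C130030K03, from the gene of a kainate receptor subunit, differed by 0.57 (0.827) and by -0.02 with the block.

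The RIKEN-named 0610031O16 and D830014E11 differed by 0.74 and 0.69 (adjusted p of 0.827 for both). The clones of Fhod3, a formin of muscle, Tspan4, a tetraspanin, and Etfbkmt, a mitochondrial protein methyltransferase, differed by 0.46, 0.44 and 0.47 (0.827 each), and Tspan4 and Etfbkmt turned to -0.33 and -0.22 with slide as a block.

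None of the gene-matched clones with the highest signal passed the threshold. The clone D730018G16, matched to BC107364, was at 6.87 ± 0.10 and 7.03 ± 0.26. That of Rb1cc1, a scaffold that starts autophagy, was at 6.78 ± 0.14 and 6.85 ± 0.24 (SD, n = 5 per group for both). Differences with their 95% intervals were 0.16 (-0.24 to 0.56) and 0.07 (-0.32 to 0.47). The clone of Zfp53, a zinc finger gene, differed by -0.35, that of Pfdn5, a subunit of the prefoldin chaperone, by -0.07, and that of Itch, a ubiquitin ligase, by -0.14. The clones of Nt5c3, a pyrimidine nucleotidase, and Dnal1, an axonemal dynein light chain, differed by -0.37 and 0.59. The RIKEN-named C730014E05 and 4930470O06 differed by 0.36 and -0.06. Adjusted p was 0.827 to 0.967 over these 9 clones.

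Clones touched few of the genes known to respond to lipid load. Of the gene lists on cholesterol synthesis, bile acids and sterol export, lipoproteins and lipases, fibrosis, the unfolded protein response and the cell cycle, 0 members were matched by a clone. The Fads2 clone 2900042M13, of the delta-6 fatty acid desaturase, was at 5.98, 6.12, 6.03, 4.56 and 5.98 in control and 5.12, 5.73, 6.56, 5.74 and 5.09 in hyperlipidemic livers. Control replicate 4 was the lowest of all arrays, and the groups overlapped (difference -0.09, 95% interval -0.81 to 0.64). The clone A730098H14 of Acly, which makes cytosolic acetyl-CoA, was well above background on 0 arrays.

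Other single members were the clones of Sod1 (B430204E11, cytosolic superoxide dismutase), Rgs5 (1110070A02, a pericyte marker), Cry2 (D130054K12, a clock repressor), Igf1 (C730016P09) and Cxcl14 (1110031L23, a chemokine). Their log2 levels in the 2 groups were -0.21 ± 0.20 and -0.64 ± 0.28 for Sod1, 2.96 ± 0.41 and 2.22 ± 0.73 for Rgs5, and -0.60 ± 0.48 and -0.80 ± 0.20 for Cry2 (SD, n = 5 per group). For Igf1 they were 1.38 ± 0.69 and 1.35 ± 0.53, and for Cxcl14 -1.06 ± 0.29 and -0.74 ± 0.43. All groups overlapped, and none passed (adjusted p of 0.827 to 0.986).

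Grouped by name, 1 family held a clone past the adjusted threshold. Of 19 probes of zinc finger genes, 6 were tested, with 0 higher and 1 lower at the adjusted threshold and 5 of 6 differences below 0 (median -0.29). The Zfp626 clone 7630402I04 differed by -0.62 (adjusted p = 0.827), or by -0.36 with undetected arrays raised to their detection floor. All 4 tested clones of solute carriers, of 18, had differences below 0 (median -0.33), among them Slc10a2 and the zinc transporter Slc30a6 (9530029F08, -0.55, or -0.13 with arrays raised to their detection floor). Of 8 tested clones of the mitochondrial ribosome and respiratory chain, of 11, 4 lay below 0 and 4 above (median -0.01), with Mrpl47 and the complex I acyl carrier Ndufab1 (2210401F17, -0.50) the lowest. Against these stands a median of -0.08 over all tested clones.

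The other families held no clone past the adjusted threshold. The ubiquitin pathway had 7 of 19 probes tested (median -0.02), with Fbxl18 (B130019G13) at 0.26 and Rnf139 (4930555P18), a ligase of the endoplasmic reticulum, at -0.30. Under the names grouped as ribosomal proteins, a grouping by letters only, the clones of Rps23rg1 (2610027C06) and Rpl41 (2210411K19) differed by -0.26 and -0.12 (median -0.19). The names grouped as splicing and RNA binding had 2 of 6 probes tested, both of Rbm46os, a transcript opposite a gene (median 0.24). Of 10 tested transcripts opposite a gene, of 28, 5 lay on either side of 0 (median 0.00). RIKEN-named genes, 83 of 530 probes tested, had a median of -0.01. Of these 83, 4 (4.819%) were higher and 1 (1.205%) lower at the unadjusted threshold, beside 2.98% and 2.83% of all features. The difference from all features was not tested.

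Clones of one gene share its locus and are not independent. Of 5 genes with 2 tested clones each, the clones had the same sign for 4. Both clones of Ppm1a, a protein phosphatase, differed by -0.08 and -0.07, and those of Vps36, of the endosomal sorting complex, by -0.11 and -0.22. The Itch clones differed by -0.14 and -1.13, both Rbm46os clones (4930444E23 and 4930564K09) by 0.46 and 0.02, and the Bclaf1 clones by 0.36 and -0.39. Repeat spots show only the spread within an array, and not technical differences between arrays. Over 910 tested clones with 2 spots, the median distance between spots was 0.12 to 0.17 log2 units per array. The median SD between arrays of a group, a different measure, was 0.33 in control, 0.27 without control replicate 4, and 0.46 in hyperlipidemic livers.

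Tested clones leaned to lower values in hyperlipidemic livers, and their median lay below that of other features in each quartile of level. The filter chose these clones, and a clone could pass it through the group where it was high. Of clones with a value on every array, 2430 were detected on all control arrays and 1998 on all hyperlipidemic arrays. With no filter the median difference was 0.10 for clones as for all features, and the filter's part in the lean was not tested. With the filter, the median difference was -0.08 over the clones and 0.03 over all features, with 59.8% and 45.8% of differences below 0. Without hyperlipidemic replicate 3 the medians were -0.01 and 0.01, and without control replicate 4 they were -0.07 and -0.03. With array weights they were -0.04 and -0.03, with slide as a block -0.16 and -0.03, and with scaling to the median 0.03 and 0.14. In the dimmest quartile of all features, which held 1351 clones (45.1% of them), clones had a median of -0.14, and at the unadjusted threshold 24 were higher and 100 lower. The other 6210 features of that quartile had -0.04 with 240 and 364. The second quartile held 810 clones with a median of -0.08 (others 0.03) and the third 515 with -0.02 (others 0.07). At the unadjusted threshold, 13 clones of the second quartile were higher and 36 lower, beside 230 and 168 of 6751 other features. In the third, 9 clones (1.75%) were higher and 26 (5.05%) lower, beside 240 and 116 of 7046 other features. In the brightest quartile 322 clones had a median of 0.02 with 7 higher and 4 lower, against 0.07 with 137 and 43 for the others. Across lengths, the median went from -0.03 for clones of up to 1000 bases to -0.13 for those over 4000 bases. Of 76 larger prefixes, the medians ran from -0.25 in the cecum library to 0.23 for prefix 5330.

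Array by array, the groups overlapped. On each array the median level of clones was set against that of the other tested features. This distance was -1.19, -1.24, -1.22, -0.86 and -1.21 on control replicates 1 to 5 and -1.04, -1.45, -1.58, -1.17 and -1.03 on hyperlipidemic replicates 1 to 5. Control replicate 4 stood highest and hyperlipidemic replicates 2 and 3, both on slide 2, lowest, while hyperlipidemic replicates 1, 4 and 5 lay above 4 of 5 controls. With no filter, over 15533 clones, the median difference was 0.10 for clones as for all features. Among the 1892 clones detected on all 10 arrays it was -0.02 (0.06 over all such features). At the unadjusted threshold 39 of these clones were higher and 73 lower, beside 803 and 444 of the 24389 such features.

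**Figure D5:**
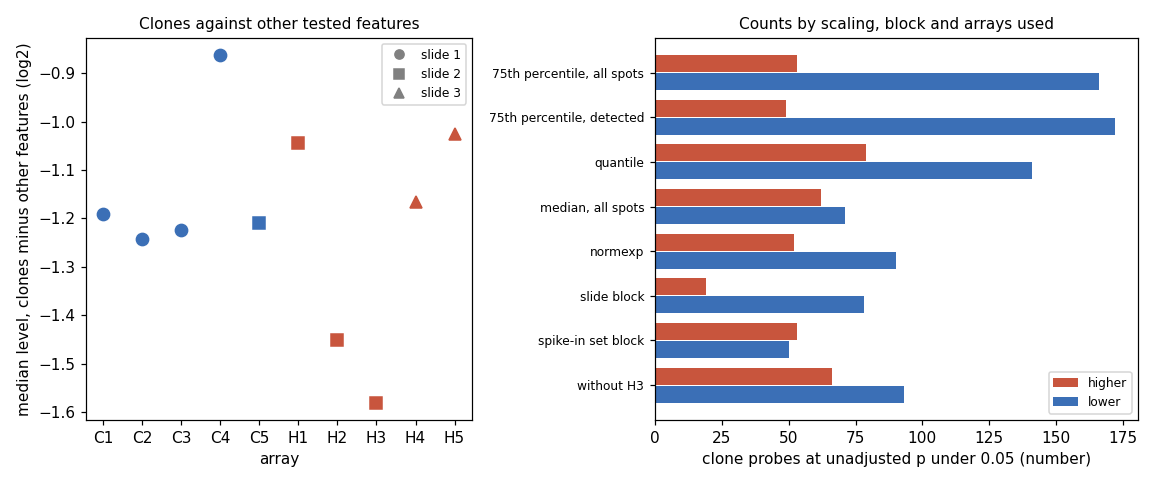
Left, median log2 level of tested clones minus that of the other tested features on each array, control blue and hyperlipidemic red, with a symbol per slide; the groups overlap, from -1.24 to -0.86 and from -1.58 to -1.03. Right, number of clone probes higher (red) and lower (blue) at an unadjusted p under 0.05 under 8 settings, from 53 and 166 with the first (900 and 857 over all features) to 53 and 50 with the spike-in set as a block (1190 and 290).

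The share of lower clones among those at an unadjusted p under 0.05 was 75.8%, against 48.8% over all features. It was 53.4% when arrays were scaled to their median (30.7% over all features), 64.1% with quantile normalization (45.8%) and 63.4% with normexp (39.6%). Median scaling moves the median of all features from 0.03 to 0.14. With the spike-in set as a block 53 clones were higher and 50 lower, beside 1190 and 290 of all features, and the medians were -0.09 and 0.10. With slide as a block 19 clones were higher and 78 lower, beside 190 and 290 of all features. Single arrays moved these counts. Without hyperlipidemic replicate 1 there were 107 higher and 315 lower clones, beside 1502 and 1457 of all features. Higher clones numbered 94 without hyperlipidemic replicate 2 (914 over all features) and 82 without control replicate 5 (1074). Lower clones numbered 93 without hyperlipidemic replicate 3 (576 over all features) and 97 without hyperlipidemic replicate 4 (501). The part of detection, slide and spike-in set in the lean was not tested.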

How the data were processed

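Per the file headers, Agilent Feature Extraction 11.5.1.1 gave each spot's intensity, a processed signal after background subtraction and detrending, with no scaling between arrays, and the headers name build mm9. The value table deposited by the authors is on a log2 scale, and each column equalled the log2 processed signal plus a constant for that array. Control spots and spots with an outlier flag were dropped, and log2 values of repeat spots were averaged. Levels are log2 processed signal minus the array's 75th percentile over non-control spots. A probe was tested if well above background on 4 or 5 arrays in either group. NR and XR probes of a RefSeq gene were reduced to the brightest, for 30244 features in all. The test was limma 3.58.1 (lmFit, then eBayes; R version 4.3.3), two-sided, and p-values were adjusted by Benjamini-Hochberg across all of these features. On simulated arrays of 30244 features, the fit of hyperlipidemic against control recovered 33 of 100 features at 2-fold change and 91 of 100 at 4-fold change, and made 4 false calls. The number of arrays limits the precision.

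Clone names were looked up in RefSeq's gene list for assembly GRCm38.p6, which served for names and promoters only. The text names each clone past the adjusted threshold and the 8 with the smallest unadjusted p in each direction. It also names the 10 gene-matched clones with the smallest unadjusted p in each direction, the 10 with the highest mean level, and tested clones of the liver library. Tested members of the symbol lists, and 2 per list of gene families, complete the rule, and the result of 1 list is not reported here. Genes with several clones and the counts by level were added after values were seen. Members and lists were chosen with earlier results of these data known. Alternatives covered scaling, background correction, filters, slide, spike-in sets (3 sets of arrays by the signal of a spike-in RNA), the spread, the value table and single arrays. Normexp used the median signal and median background with an offset of 50, where the mean signal had been planned.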

Additional observations from a re-analysis of the deposited data

Results flagged for a closer look

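In 9 of 120 groups of 5 arrays over the 59 named clones and the share of clones detected, 1 array lay far from the other 4 by Dixon's criterion, where chance flags about 1 in 20 groups, or 6. All values are log2 levels relative to the array's 75th percentile. Control replicate 4 accounted for 4 of the 9. It read 3.07 for the Krtap10-4 clone A030009A09 (other controls 3.64 to 3.86), 2.34 for D830014E11 (3.62 to 3.90) and 4.56 for the Fads2 clone 2900042M13 (5.98 to 6.12). It was the high array for the Rps23rg1 clone 2610027C06, at 1.97 (1.13 to 1.30). Control replicate 5 read 0.37 for D030067P18 (0.90 to 1.02) and 2.58 for the Igf1 clone C730016P09 (0.81 to 1.28). Among hyperlipidemic arrays, replicate 1 read 3.38 for D830014E11 (4.21 to 4.45). Replicate 3 read 0.36 for D030020A02 (-0.41 to -0.33), and replicate 5 read 2.30 for the Tspan4 clone D130042I01 (1.86 to 1.97).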

How the results depend on the processing

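The count of clones higher at an adjusted p under 0.05, 0 as reported, was 1 with the 75th percentile over detected probes and with normexp, and 0 to 1 when 1 array was left out. The count of lower clones, 2 as reported, was 1 with quantile normalization, with no filter and with the robust and trended prior, and 3 with array weights. It was 0 with median scaling, normexp, slide as a block, the slide of both groups alone, detection required on all 10 arrays, the spike-in set as a block, and without both replicates 4, and 0 to 2 when 1 array was left out. At an unadjusted p under 0.05, higher clones (53 as reported) numbered 244 with no filter, where 15533 clones were tested, 19 with slide as a block, 90 with array weights, and 41 to 107 when 1 array was left out. Lower clones (166) numbered 71 with median scaling, 90 with normexp, 410 with no filter, 73 with the filter on all 10 arrays, 78 with slide as a block, 49 on the slide of both groups alone, 50 with the spike-in set as a block, 100 without both replicates 4, and 93 to 315 when 1 array was left out. Over all features, 900 were higher and 857 lower as reported. With no filter 1885 were higher, with slide as a block 190 and with array weights 893. Leaving out 1 array gave 584 to 1502 higher and 501 to 1457 lower. Lower features numbered 351 with median scaling, 775 with normexp, 1995 with no filter and 444 with the filter on all 10 arrays. They numbered 290 with slide or spike-in set as a block and 627 without both replicates 4. The median difference of clones was 0.098 with no filter. The difference in the share of clones detected ran from -5.25 percentage points with another detection flag to -0.69 without both replicates 4. The cause of these changes was not tested.

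Of the 59 named clones, 38 kept their sign in every setting run, and the 21 others, none of which passed the adjusted threshold, changed sign in at least 1. Over detected probes, the Rbm46os clone 4930564K09 differed by -0.053. Quantile normalization gave -0.00024 for the Rb1cc1 clone 5930404L04. Median scaling gave 0.034 for 1190001O17 (Pfdn5), 0.021 for 2900042M13 (Fads2), 0.052 for 4930470O06 and 0.076 for C730016P09 (Igf1). Normexp gave 0.027 for C730016P09. Slide as a block and the slide of both groups alone gave the same values: -0.52 for 1500002F19, -0.44 for 9530050K03, -0.018 for C130030K03 (Grik2), -0.33 for D130042I01 (Tspan4), -0.22 for 4833442J19 (Etfbkmt), -0.19 for 5930404L04 and 0.015 for D030067O06 (Zfp53). The spike-in set as a block gave -0.039 for D130042I01, 0.12 for D330022K07 (Sorbs2os), 0.042 for 9130221J18 (Slc10a2), 0.098 for 6330564D18 (Yod1), -0.0085 for D730018G16, -0.16 for 5930404L04 and 0.097 for 8030492O04 (Itch). It gave 0.15 for 2900042M13, 0.51 for 4930470O06, -0.26 for E330027P08 (Dnal1), 0.39 for 4930555P18 (Rnf139) and -0.33 for 4930444E23 (Rbm46os). Array weights gave 0.18 for C730016P09. Without both replicates 4, 4930470O06 differed by 0.030 and C730016P09 by 0.0086. When 1 array or both replicates 4 were left out, differences ran from -0.018 to 0.13 for 5930404L04, from -0.41 to 0.052 for 2900042M13, from -0.22 to 0.14 for 4930470O06, from -0.30 to 0.080 for 2210411K19 (Rpl41) and from -0.11 to 0.14 for 4930564K09. They ran from -0.20 to 0.023 for 1190001O17 and from -0.24 to 0.27 for C730016P09.

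Of the tested clones, 1892 of 2998 were well above background on all 10 arrays, and for the others a low level can be only a bound. The slide block rests on a single control array, and the spike-in block on control replicates 4 and 5 and hyperlipidemic replicates 1 and 2. No paired analysis was possible because replicate numbers follow the order of the samples and the labels pair none. Averaging the probes of a clone was not run, since each clone has 1 probe.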
